A study of Mus musculus with 2 samples.

Results

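Mouse liver genes whose level depends on the pulsatile pattern of growth hormone are described here: the major urinary protein genes Mup3, Mup20 and Mup21, the cytochrome P450 gene Cyp2d9, the complement regulator gene Susd4, the acetyltransferase gene Nat8 and the transcribed pseudogene Serpina4-ps1. They were chosen by name, with their differences between the arrays already known, and make up 7 of 22180 genes with a probe set of their own. Each was read by 1 probe set that carries no other gene symbol. The E4bp4-LKO group was 1 array of liver RNA pooled from male mice described as deficient in E4bp4, the transcription factor encoded by Nfil3. The WT group was 1 array of liver RNA pooled from wild-type males. High-fat feeding began in both genotypes at 2 months and lasted 12 weeks, in a room at 25 °C with light for 12 hours a day. The sources used here do not state what LKO stands for, which promoter drives any Cre, the strain, how many mice made up a pool, or the hour at which livers were taken. With 1 array per genotype there is no replicate error and no test, and every difference is a description of these 2 pools. The number of arrays limits the precision. In bulk tissue, fewer cells of a type and less RNA per cell cannot be told apart.

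Growth hormone is released by the pituitary in pulses in male rodents and more evenly in females. Its receptor on hepatocytes activates the kinase JAK2, which phosphorylates the transcription factor STAT5B. Pulses of active STAT5B keep male-biased liver genes on and female-biased ones low, and the repressor BCL6 binds many of the same sites. The major urinary proteins are lipocalins that hepatocytes secrete and that carry pheromones in male urine.

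On the log2 intensity scale, 4 of the 7 genes were higher on the E4bp4-LKO array by at least 1.5-fold, and 3 lay within 0.11 of the WT value. Among the 11090 genes above a floor set at the median gene level (4.20), 1.51% were higher by that much, 2.06% were lower by that much and 3.57% differed by that much in either direction. At 2-fold, 3 of the 7 were higher, beside 0.388% of all genes above the floor. The genes were chosen with these differences known, so nothing is read from the counts. All 7 lay above the floor on both arrays. The median difference of the 7 genes was 0.72, beside -0.02 over all genes above the floor.

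Nat8 encodes an enzyme of the endoplasmic reticulum that acetylates cysteine conjugates, the last step of mercapturic acid formation. It read 6.26 in E4bp4-LKO liver, against 4.63 in WT liver. The difference of 1.64 corresponds to 3.12-fold and ranked 12 of 11090 from the highest. The WT value lay just above the floor, where RMA compresses differences, so the size of this one is uncertain.

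Susd4 encodes a membrane protein with sushi domains that restrains complement activation. It read 7.26 in E4bp4-LKO liver, against 5.95 in WT liver. The difference was 1.31, or 2.48-fold, and ranked 20. Serpina4-ps1, a transcribed pseudogene of the clade A serpins in mouse, read 6.96 in E4bp4-LKO liver, against 5.89 in WT liver. Its difference was 1.07, or 2.10-fold, and ranked 35.

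Among the urinary protein genes, Mup21 read 7.90 in E4bp4-LKO liver, against 7.17 in WT liver. This difference of 0.72, or 1.65-fold, ranked 94 and was the smallest of the 4. Mup3 read 12.58 in E4bp4-LKO liver, against 12.47 in WT liver (difference 0.11). Mup20, which encodes the male pheromone protein darcin, read 12.12 in E4bp4-LKO liver, against 12.04 in WT liver (difference 0.08). The E4bp4-LKO value was the higher of the pair for all 3 urinary protein genes, and only for Mup21 by 1.5-fold.

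Cyp2d9, a steroid 16-alpha-hydroxylase of male mouse liver, read 9.95 in E4bp4-LKO liver, against 10.02 in WT liver. It was the only one of the 7 with a negative difference (-0.07).

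**Figure D1:**
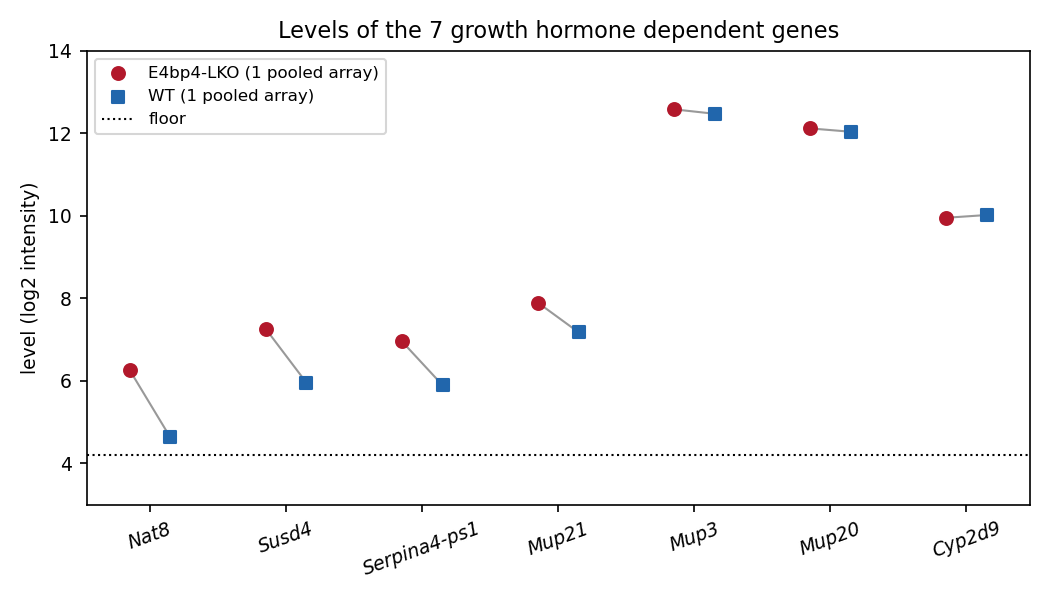
Level (log2 intensity) of each of the 7 genes on the E4bp4-LKO array (red circles, left of each pair) and the WT array (blue squares, right), 1 pooled array each, with the floor of 4.20 dotted. The lines slope down towards WT for Nat8, Susd4, Serpina4-ps1 and Mup21 and are nearly flat for Mup3, Mup20 and Cyp2d9.

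Both Mup3 and Mup20 read close to the top of the scale. Mup3 lay 0.24 below the highest value on the E4bp4-LKO array and 0.30 below the highest on the WT array, and Mup20 lay 0.70 and 0.74 below on the same arrays. None of the 22 genes with a mean level over 12 differed by 1.5-fold, and their differences ran from -0.13 to 0.13. Whether probe signal this close to the top of the scale could still show a higher level was not tested. Cyp2d9 lay in a range, mean levels from 8 to 10, where 3.31% of 1573 genes differed by 1.5-fold in either direction.

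**Figure D2:**
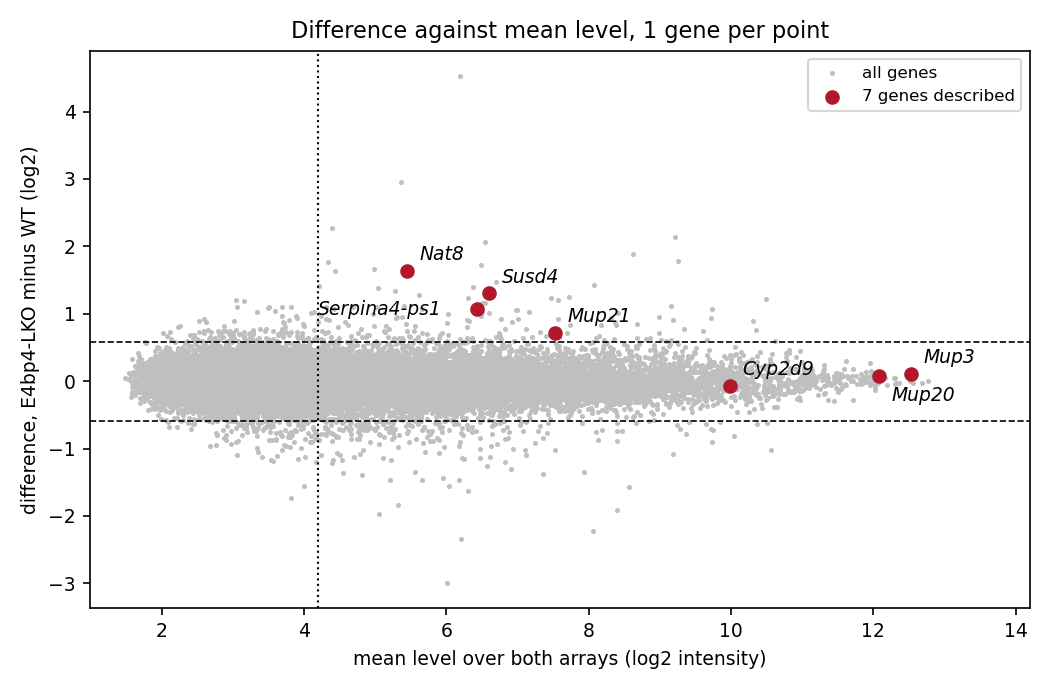
Difference (E4bp4-LKO minus WT, log2) against the mean level over both arrays (log2 intensity), 1 grey point per gene, with the 7 genes in red, the 1.5-fold lines dashed and the floor dotted. Nat8, Susd4, Serpina4-ps1 and Mup21 lie above the upper dashed line, and Mup3 and Mup20 lie at the bright end, where all points are close to 0.

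The 3 urinary protein genes lie together on chromosome 4 in RefSeq's GRCm38.p6 annotation, in a cluster of closely similar copies whose probes may share signal. Their proximal promoters can be set side by side for the pair with a sequence, Mup21 and Mup3, whose differences between the arrays were 0.72 and 0.11. The sequences are RefSeq's, from GRCm38.p6, and hold the 250 bases before the gene start on the minus strand, at chr4:62150842-62151091 for Mup21 and chr4:62087318-62087567 for Mup3. Capitals mark the bases within the aligned stretch that differ or have no partner, and the overhanging ends are left in lower case.
Mup21: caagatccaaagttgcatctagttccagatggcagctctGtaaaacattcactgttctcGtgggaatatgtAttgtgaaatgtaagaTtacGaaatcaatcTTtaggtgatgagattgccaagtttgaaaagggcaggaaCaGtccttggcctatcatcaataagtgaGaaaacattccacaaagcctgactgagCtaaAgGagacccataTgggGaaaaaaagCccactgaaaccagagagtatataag
Mup3: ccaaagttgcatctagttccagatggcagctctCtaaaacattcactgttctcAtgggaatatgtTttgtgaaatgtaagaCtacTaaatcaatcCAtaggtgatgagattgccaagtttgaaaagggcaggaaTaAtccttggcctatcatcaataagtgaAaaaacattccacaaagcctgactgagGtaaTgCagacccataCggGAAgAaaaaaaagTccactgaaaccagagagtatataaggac
Of 244 aligned positions, 228 (93.4%) were identical, and the stretch gagagtatataag, which holds a TATA-like run, was the same in both.

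Promoter windows of 300 bases (250 before to 50 after the start) were given for 5 of the 7 genes, 7 windows in all. They were searched on both strands for the D-box letters TTATGTAA and TTACGTAA, which E4BP4 and the activators DBP, TEF and HLF bind, and for TTCNNNGAA, the letters of a STAT5 site, which BCL6 sites overlap. None of the 7 windows held any of them. Among all 32851 windows of this length, 0.938% held TTATGTAA, 0.119% held TTACGTAA and 8.30% held TTCNNNGAA. Allowing 1 position to differ from either D-box, a search added after the promoters had been seen, matched 1 of the 7 windows. The match is TTACGAAA in Mup21, whose first base lies at -163 from the start. Such a match occurred in 17.4% of all windows, so 1 of 7 windows is near that share and nothing is read from it. These are letters in a short window and do not show binding or its absence.

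Relatives of the 7 genes were found by their symbols. Of the other urinary protein genes with a probe set of their own, Mup-ps12 read 7.39 in E4bp4-LKO liver, against 7.83 in WT liver (difference -0.45). Mup5 and Mup6 lay below the floor on both arrays. A further 2 probe sets list 4 Mup symbols each and cannot be assigned to a gene. They differed by 0.45 and 0.16. None of these 5 probe sets reached 1.5-fold.

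The Nat8 relatives include a row of acetyltransferase genes on chromosome 6. Of the 6 relatives with a probe set of their own, Nat8l on chromosome 5 lay below the floor on both arrays. Of the 5 above the floor, all on chromosome 6, 2 were higher by at least 1.5-fold (median 0.54), against 1.51% of all genes above the floor. Nat8f3 read 4.81 in E4bp4-LKO liver, against 3.90 in WT liver (difference 0.91). Nat8f7 read 4.64 in E4bp4-LKO liver, against 3.76 in WT liver (difference 0.88). Both WT values lay under the floor, so both genes passed it through the E4bp4-LKO array, and the count describes the family without being support for a difference. Nat8f1 (0.54) and Nat8f4 (0.23) differed less. Nat8f2 read 11.87 in E4bp4-LKO liver, against 11.86 in WT liver (difference 0.02). This level is near that of Mup20, and whether it could still show a higher one was not tested. The largest differences of the row came from 2 probe sets that list several Nat8 family symbols each. Both list Nat8f3 and Nat8f6, the second adds Nat8f5, and neither lists Nat8, so they are not independent readings. The one with 2 symbols read 6.41 in E4bp4-LKO liver, against 4.42 in WT liver, a difference of 1.99 or 3.97-fold. The one with 3 symbols read 6.74 in E4bp4-LKO liver, against 4.55 in WT liver, a difference of 2.19 or 4.57-fold. The WT values of both probe sets lay just above the floor, so the size of these differences is uncertain, as for Nat8. Probe sequences were not used here, and Nat8 and these copies may share signal.

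**Figure D3:**
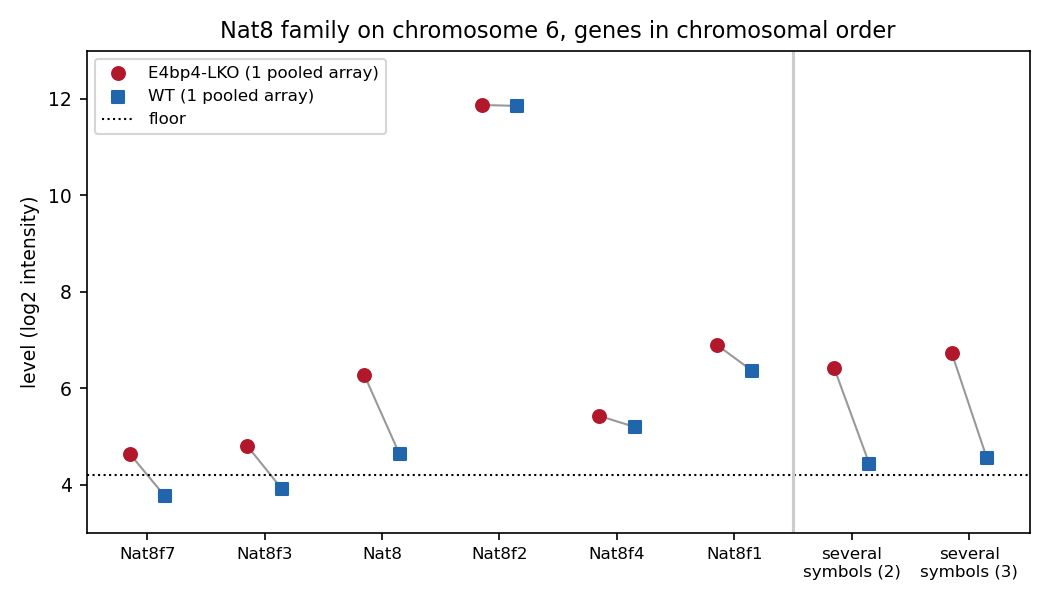
Level (log2 intensity) of the Nat8 family genes on chromosome 6, in chromosomal order, on the E4bp4-LKO array (red circles, left) and the WT array (blue squares, right), with the 2 probe sets that list several family symbols (2 and 3 symbols) right of the grey line. The steepest lines are those of Nat8 and of the 2 probe sets with several symbols, and Nat8f2, at 11.87 and 11.86, is flat.

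Nat8 is also abundant in kidney tubules, so kidney markers were added after these values had been seen. Of 8 such genes, 7 had a probe set of their own (Umod, Slc12a1, Slc34a1, Kap, Aqp2, Slc5a2 and Slc12a3), and all 7 lay below the floor on both arrays. Their summed log2 level was 23.3 on both arrays.

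The Cyp2d family holds steroid and drug hydroxylases. Of the Cyp2d genes other than Cyp2d9, 6 lay above the floor and none differed by 1.5-fold (range -0.19 to 0.25). Of the other sushi-domain genes, Susd2 was lower by 1.60-fold, at 5.34 in E4bp4-LKO liver, against 6.03 in WT liver. Susd1 (-0.50) and Susd6 (-0.06) stayed within 1.5-fold. Of the 11 other clade A serpin genes above the floor, 2 were higher by at least 1.5-fold, against 1.51% of all genes above the floor. Serpina1e, an alpha-1-antitrypsin copy with male-biased expression, read 9.56 in E4bp4-LKO liver, against 7.68 in WT liver (difference 1.88). Serpina12, which encodes the adipokine vaspin, read 5.92 in E4bp4-LKO liver, against 5.18 in WT liver (difference 0.74). The median of the 11 was 0.06.

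**Figure D4:**
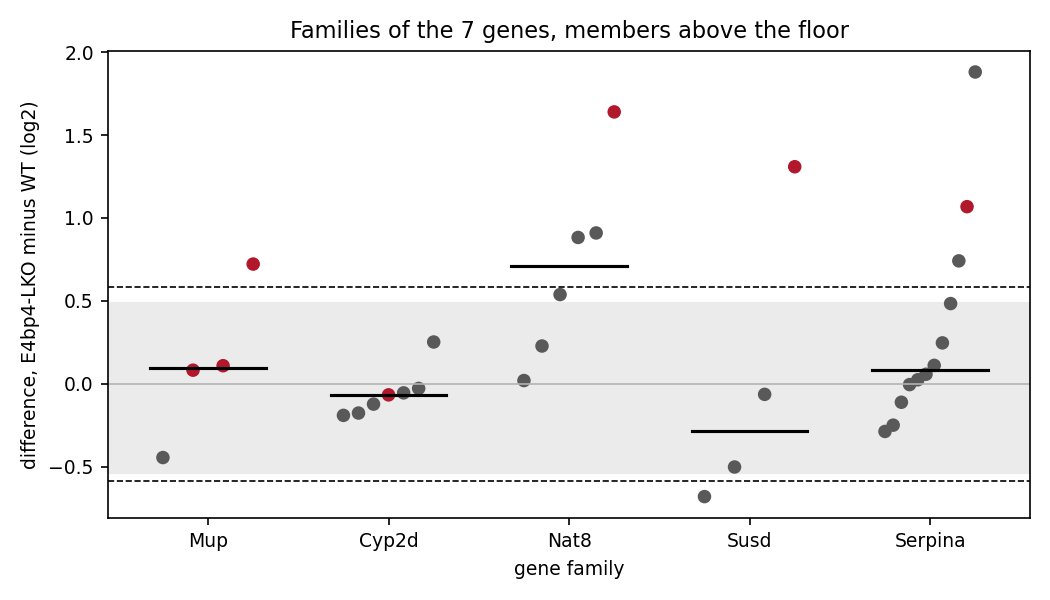
Difference (E4bp4-LKO minus WT, log2) of the genes above the floor in each family, with the 7 genes in red, relatives in grey, family medians as black bars, the 1.5-fold lines dashed and the central 95% of all genes above the floor shaded (-0.54 to 0.49). The Nat8 family has all its points at or above 0, and the Cyp2d family stays inside the shading.

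A list of other male-biased liver genes was set beside the 7. Of its 17 genes, 15 lay above the floor, 6 were higher and 1 was lower by at least 1.5-fold, against 1.51% and 2.06% of all genes above the floor, and the median was 0.34. Over all 17 with no floor the median was 0.16. This list and those of the next paragraphs were chosen with earlier results of these data known, so their counts describe them and are not support for a difference. Of those that were higher, Hsd3b5, a steroid dehydrogenase family member of male mouse liver, differed by 4.53. Its WT value was under the floor, which it passed only through the E4bp4-LKO array. The organic anion transporter gene Slco1a1 (2.14), Serpina1e, the fatty acid hydroxylase gene Cyp4a12b (1.42), the elongase gene Elovl3 (1.21) and the growth factor receptor gene Egfr (1.11) were the others. Several of the list differed by less than 0.2 in size, as Mup3, Mup20 and Cyp2d9 did: Ugt2b1, Selenbp2, Cyp4a12a, C6, Gstp1 and Gstp2. The single gene that was lower was Bcl6, the repressor that opposes STAT5 at female-biased genes. It read 6.22 in E4bp4-LKO liver, against 7.42 in WT liver, a difference of -1.20 or 2.30-fold lower.

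Of 20 female-biased genes, 16 had a probe set of their own and 11 lay above the floor. Among these 4 were lower and 1 was higher by at least 1.5-fold, against 2.06% and 1.51% of all genes above the floor, and the median was -0.11. With probe sets of several symbols also used, 13 genes lay above the floor, 4 were lower and 3 were higher, and the median was 0.04, so the sign of the median is not settled. In that setting a probe set counts for each of its symbols, so the genes it adds may not be separate readings. Lower were Abcd2 (-0.87), a fatty acid transporter of peroxisomes, and the cytochrome P450 genes Cyp2b13 (-2.99), Cyp2a4 (-1.38) and Cyp2b9 (-1.02). Cyp3a44 was higher, by 1.27. The female-specific repressor gene Cux2 read 4.56 in E4bp4-LKO liver, against 4.46 in WT liver.

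The growth hormone pathway was read from its own genes. Of 15 genes from the growth hormone receptor to STAT5 and its partners, 11 lay above the floor. Among these 1 was higher and none was lower by 1.5-fold, against 1.51% and 2.06% of all genes above the floor. With 11 genes, a count of none lower is near that share and is not a result about the pathway. The median was 0.06 (0.02 over 14 genes with no floor, 0.13 over 9 with a floor at the upper quartile). The receptor gene Ghr (0.16), the kinase gene Jak2 (-0.07) and Stat5b (-0.06) stayed close to their WT values, and Stat5a differed by -0.34. Igf1, the STAT5 target that encodes the circulating growth factor, read 10.27 in E4bp4-LKO liver, against 9.98 in WT liver (difference 0.29). The feedback inhibitor gene Cish read 4.35 in E4bp4-LKO liver, against 4.44 in WT liver, and Socs1, Socs2 and Socs3 lay below the floor on both arrays. The gene that was higher was Onecut1, which encodes the hepatocyte factor HNF6. It read 7.52 in E4bp4-LKO liver, against 6.48 in WT liver (difference 1.05). RNA levels do not show STAT5 phosphorylation or hormone pulses, which were not measured in the files used here.

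**Figure D5:**
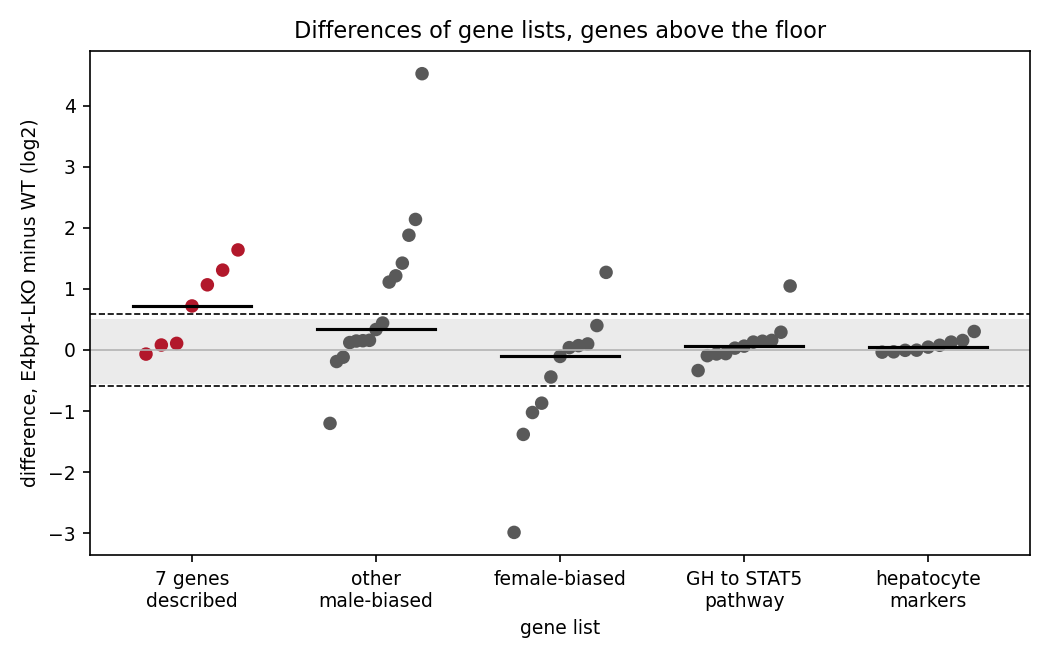
Difference (E4bp4-LKO minus WT, log2) of the genes above the floor in each list, with medians as black bars, the 1.5-fold lines dashed and the central 95% of all genes above the floor shaded. The 7 genes (red) spread upwards. The other male-biased genes spread mostly upwards, with Bcl6 at -1.20 below the lower dashed line, and female-biased genes spread both ways. All growth hormone (GH) pathway genes but 1 lie inside the dashed lines.

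Over the 2 arrays, likeness to a gene means nearness of both log2 values, so it follows from level and difference alone. Only genes above the floor were compared, without probe sets of several symbols and without numbered or predicted gene models. The nearest to Susd4 were Noct (distance 0.07) and Auh (0.13). The nearest to Mup21 were Immp1l (0.09) and Sf3b6 (0.12). Serpina4-ps1 had Rps13 (0.11) and Saa3 (0.19) nearest to it. Among the genes compared, Nat8 had none as close, with Cyp3a44 at 0.35 and Defb1 at 0.37. The Nat8 family probe set with 2 symbols was left out of the comparison. It read 6.41 in E4bp4-LKO liver and 4.42 in WT liver, near the 6.26 and 4.63 of Nat8.

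The targeted gene Nfil3 read 4.47 in E4bp4-LKO liver, against 5.94 in WT liver, a difference of -1.47. Hepatocyte markers were high on both arrays, and the 9 of 10 with a probe set of their own differed by between -0.04 and 0.30. Alb, Ttr, Fgb and Ahsg had mean levels over 12, where none of 22 genes differed by 1.5-fold. Their small differences therefore do not show an equal hepatocyte content. Markers of other tissues did differ. Among all genes above the floor, the shares to set beside the counts that follow were 1.51% higher and 2.06% lower by 1.5-fold. Of 8 skeletal muscle markers 7 lay above the floor, all 7 were negative and 6 were lower by at least 1.5-fold, with a summed log2 level over the 8 of 39.1 in E4bp4-LKO liver, against 47.4 in WT liver. Of 6 measured squamous epithelium markers, Krt4, Krt13 and Krtdap were higher and Sprr1a and Ly6d lower by at least 1.5-fold, with a summed log2 level of 35.1 in E4bp4-LKO liver, against 32.1 in WT liver. The WT values of Krt4, Krt13 and Krtdap were under the floor, which these genes passed only through the E4bp4-LKO array. All 8 stellate cell markers were negative (median -0.57), and Col3a1 (-1.15) and Col1a1 (-1.01) were lower by at least 1.5-fold, with sums of 49.5 on the E4bp4-LKO array and 54.6 on the WT array. None of the 6 endothelial, 6 macrophage and 2 cholangiocyte markers above the floor reached 1.5-fold, which for so few genes is near the 3.57% of all genes. Of the 3 lymphocyte markers above the floor Cd4 was higher, by 0.66, and the 3 measured adipocyte markers lay below the floor on both arrays. The part of any of these in the differences of the 7 genes was not tested.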

How the data were processed

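The authors deposited a log2 intensity for each probe set on each of 2 arrays, and the submitters' processing notes name RMA and R 3.4.0. RMA corrects background, equalises arrays by quantiles and summarises probes. Per the labels' protocols, biotinylated cDNA was made from 400 ng of TRIzol-extracted RNA. Scanner files were not used here. The 41345 probe sets carried 1 symbol (23521), several (1814) or none (16010) in the platform annotation. Of those with 1 symbol, 23328 matched the GRCm38.p6 RefSeq gene table by Entrez identifier, and no symbol changed. Probe sets of a gene were averaged (pandas 2.3.3). The difference is E4bp4-LKO minus WT, called past 1.5-fold, with a floor at the median gene level. Named are the 7 genes, Nfil3, relatives and list members past 1.5-fold or with the largest differences, others where a sentence turns on them, and the 2 genes nearest each called gene. The members and lists were chosen with earlier results of these data known. Alternatives changed probe set summary, symbols, centring, level trend (statsmodels 0.14.6), fold and floor. Promoters were aligned with Biopython 1.88.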

Additional observations from a re-analysis of the deposited data

How the results depend on the processing

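Under 5 other ways of summarising or scaling the values, the differences kept their sign and their side of the 1.5-fold threshold for all 7 genes. Those of Nat8 ran from 1.63 to 1.67, of Susd4 from 1.30 to 1.32, of Serpina4-ps1 from 1.06 to 1.09, of Mup21 from 0.71 to 0.73, of Mup3 from 0.09 to 0.11, of Mup20 from 0.06 to 0.08 and of Cyp2d9 from -0.08 to -0.07. Each gene has 1 probe set, so 3 of the 5 could not change it. When the floor was raised to the 75th percentile, 6 of the 7 genes lay above it and their median difference was 0.42, because Nat8 lay below it. The number of female-biased genes higher by 1.5-fold, 1 as reported, was 3 with probe sets of several symbols used, 2 with no floor and 0 with the raised floor. The number lower, 4 as reported, was 6 with no floor and 3 with the raised floor or at 2-fold. With no floor, Ntrk2 (-1.73) and Cyp2b10 (-1.15) joined the lower genes and A1bg (0.59) the higher. At 2-fold, Mup21 was no longer called. No paired analysis was possible because each genotype has 1 pooled array. Over 555 genes above the floor with 2 probe sets, the E4bp4-LKO minus WT difference varied between probe sets of a gene with an SD of 0.22. This SD covers probe disagreement only and not mice, pools or arrays.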

Other observations

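Genes next to the 7 on the chromosomes were read to see how far along the chromosome the differences reached. Among the 5 nearest genes with a probe set on each side, those outside the families of the 7 and above the floor numbered 18 in all. None of the 18 differed by 1.5-fold, beside 3.57% of all genes above the floor, and their differences ran from -0.41 to 0.34. A count of none among 18 genes is near that share, so nothing is read from it. Beside Susd4, the proapoptotic p53 partner gene Trp53bp2 differed by -0.10, the flagellin receptor gene Tlr5 by -0.36 and Mia3, which serves collagen export, by -0.28. Beside the Nat8 row, Alms1 differed by -0.41 and Tprkb by 0.10. All 10 genes nearest to Serpina4-ps1 were clade A serpins, of which 4 lay above the floor, and Serpina1e and Serpina12 were the 2 that were higher by 1.5-fold.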
